A study of Mus musculus with 12 samples.

Results

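The signal of 6 genes of lymphocytes and antibody-secreting cells was followed through cells sorted from the mouse olfactory mucosa, the tissue that carries the olfactory sensory neurons. These genes are Jchain, Cd79a, Cd79b, Cd3e, Nkg7 and Gzma. The rule took probe sets annotated with one of these symbols alone, and where a gene has several, the probe set with the highest mean. All 6 of 6 members were found among 19938 measured genes, each with 1 probe set. These are 10531126 for Jchain, 10551025 for Cd79a, 10392142 for Cd79b, 10593024 for Cd3e, 10552406 for Nkg7 and 10412211 for Gzma.

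Signal was measured on 12 Mouse Gene 1.0 ST arrays. All mice were S100a5-tauGFP reporter mice, whose GFP follows S100a5, a calcium-binding protein gene that olfactory sensory neurons transcribe when active. The 18 mice, of both sexes and 7 to 12 weeks old, spent 40 hours singly in chambers with clean air at 3.1 L per minute. Starting at 26 hours, the vehicle mice were given filtered air and the odor mice a citrus accord (5%), a mixed fragrance, in pulses of 10 seconds every 20 minutes. Each array holds the cells of 3 pooled mice, and each of 6 pools is taken to have given a GFP-positive and a GFP-negative array. Treatment and fraction make 4 groups of 3 arrays, numbered 2, 3 and 4 for odor and 1, 2 and 4 for vehicle. The sort used GFP alone, so no array is of purified lymphocytes, and in such mixed samples fewer cells of a type and less RNA per cell cannot be told apart.

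Array medians lay between 7.04 and 7.20 (log2) and lower quartiles, over all probe sets, between 5.65 and 5.83. Both fractions carried neuronal RNA. Omp, the olfactory marker protein gene of mature sensory neurons, measured 13.45 to 13.51 on the GFP-positive and 13.04 to 13.29 on the GFP-negative arrays. S100a5 was low, below the median of every array, at 6.29 to 6.48 on the GFP-positive and 5.83 to 6.23 on the GFP-negative arrays. Ptprc (CD45), carried by nearly all white blood cells, was lower in GFP-positive cells, with differences of -4.31 in vehicle and -4.27 in odor mice (log2, SE 0.16, adjusted p = 2.8e-09 and 2.5e-09 by limma).

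Lymphocytes recognise antigen through receptors whose binding chains carry no signalling tail of their own. On B cells the membrane antibody signals through the paired chains that Cd79a and Cd79b encode, and on T cells the receptor signals through the CD3 chains, of which Cd3e encodes epsilon. Plasma cells descend from B cells and secrete antibody. The joining chain, encoded by Jchain, links antibody units into polymeric IgA and IgM, the forms that epithelia carry into mucus, including that of the nose. Natural killer cells and cytotoxic T cells store Gzma, the serine protease granzyme A, in granules, and Nkg7 encodes a membrane protein of those granules.

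The windows in front of 4 of these genes are shown: Jchain and Nkg7 for the odor comparison, Cd79a and Cd3e for the sort. No result rests on them. RefSeq promoter sequences (GRCm38.p6) were matched by symbol for 5 of 6 members, with no entry for Cd79b. Each window is the 250 bases that end just before the annotated start. Searched on both strands were the octamer ATGCAAAT, the ETS core AGGAAG, the RUNX site TGTGGT and the E box CAGGTG. Capitals mark every match.
Jchain (chr5:88527898-88528147, minus strand): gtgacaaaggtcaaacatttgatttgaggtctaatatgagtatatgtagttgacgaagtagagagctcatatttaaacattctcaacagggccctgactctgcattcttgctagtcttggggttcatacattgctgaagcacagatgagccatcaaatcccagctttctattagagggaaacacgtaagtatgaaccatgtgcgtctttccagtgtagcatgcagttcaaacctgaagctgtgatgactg
Cd79a (chr7:24897247-24897496, plus strand): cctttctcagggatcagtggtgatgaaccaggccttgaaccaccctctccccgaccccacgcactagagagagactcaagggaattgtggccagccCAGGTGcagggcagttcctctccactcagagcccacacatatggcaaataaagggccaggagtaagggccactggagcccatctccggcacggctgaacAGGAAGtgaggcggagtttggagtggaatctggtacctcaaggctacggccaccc
Cd3e (chr9:45009612-45009861, minus strand): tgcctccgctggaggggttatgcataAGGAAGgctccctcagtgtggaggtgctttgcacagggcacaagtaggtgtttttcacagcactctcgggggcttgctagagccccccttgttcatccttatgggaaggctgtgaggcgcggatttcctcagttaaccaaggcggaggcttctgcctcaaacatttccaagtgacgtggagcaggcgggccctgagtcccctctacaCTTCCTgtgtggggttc
Nkg7 (chr7:43436888-43437137, plus strand): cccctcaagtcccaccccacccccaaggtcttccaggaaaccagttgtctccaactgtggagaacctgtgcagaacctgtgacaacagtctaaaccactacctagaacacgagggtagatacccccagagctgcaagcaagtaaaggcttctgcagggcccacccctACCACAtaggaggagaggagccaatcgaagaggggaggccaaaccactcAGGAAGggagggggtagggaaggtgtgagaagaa
Cd79a, Cd3e and Nkg7 each held the ETS core, as did 29.5% of 32851 RefSeq windows of this length. Its start lay 55 bases before the annotated start of Cd79a, 34 before that of Nkg7, and 224 and 17 before that of Cd3e. Cd79a also held the E box (17.2% of windows) and Nkg7 the RUNX site in its reverse form (14% of windows). The Gzma window, searched but not shown, held the RUNX site 50 bases and the E box 135 and 79 bases before the annotated start. The Jchain window held none of the 4 motifs in these letters, and the octamer (1.6% of windows) occurred in none of the 5 member windows. These matches describe letters and are not measured binding sites.

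The sort of GFP-positive from GFP-negative cells shows in which fraction the lymphocyte signal lies. All 6 members were lower in GFP-positive cells, in vehicle mice and in odor mice alike. Each passed at an adjusted p under 0.05 over all genes by limma, where 18.2% of genes were lower in vehicle mice and 18.7% in odor mice. For every member all 6 GFP-negative arrays lay above all 6 GFP-positive arrays, which held for 17.2% of genes. The median of the 6 differences was -1.94 in vehicle mice and -2.38 in odor mice, against 0.056 and 0.13 over all genes.

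**Figure D1:**
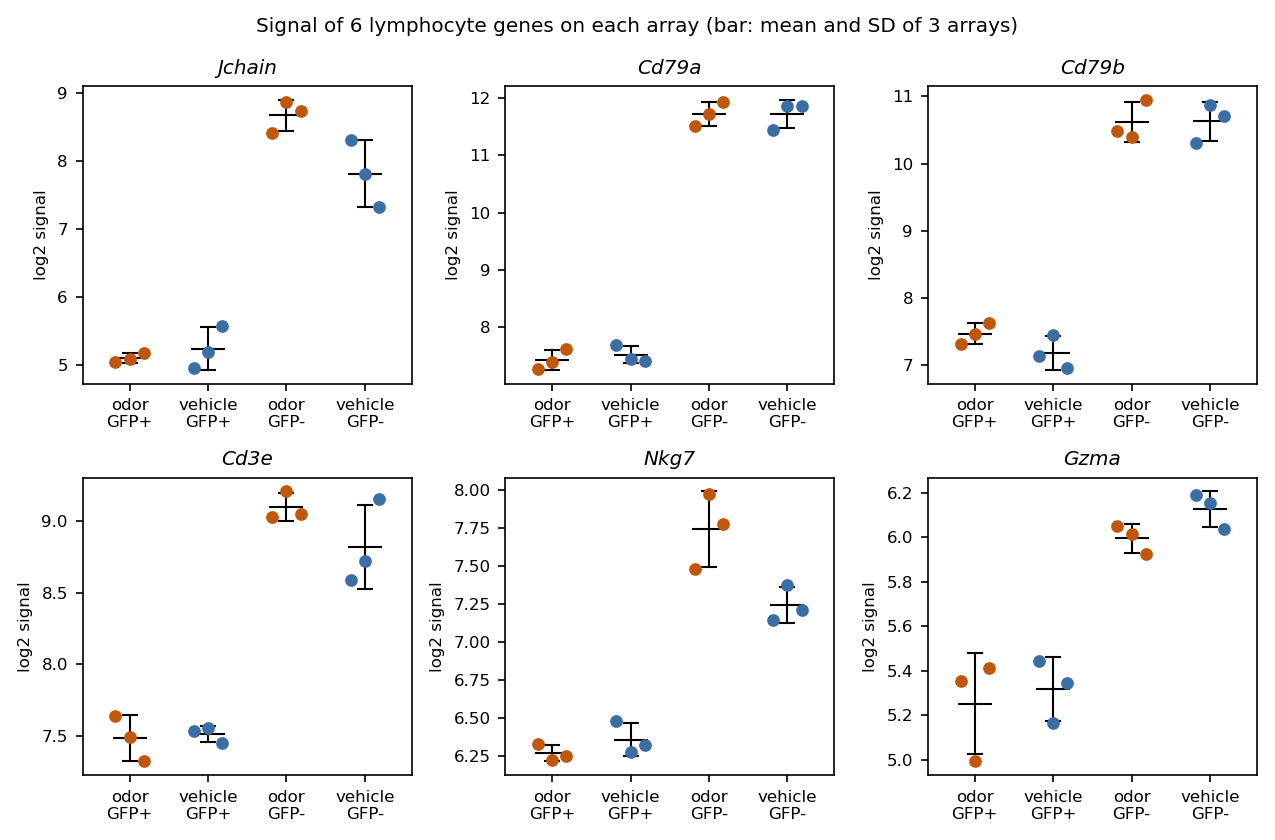
Deposited log2 signal of each member on the 12 arrays, one panel per gene with its own axis. Points are arrays in the order of their replicate numbers, and the bar is the mean with the SD of 3 arrays. In every panel the 6 GFP-negative arrays lie above the 6 GFP-positive arrays, and for Jchain and Nkg7 the 3 odor GFP-negative arrays lie above the 3 vehicle GFP-negative arrays.

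The B cell receptor genes gave the steepest steps of the 6 between fractions in vehicle mice, and in odor mice Jchain stood between them. Cd79a, the alpha signalling chain, measured 11.44, 11.87 and 11.87 on vehicle GFP-negative arrays 1, 2 and 4 and 11.51, 11.72 and 11.94 on odor GFP-negative arrays 2, 3 and 4. On the GFP-positive arrays it measured 7.69, 7.46 and 7.41 in vehicle and 7.27, 7.40 and 7.63 in odor mice. No GFP-positive array came within 3.74 of a GFP-negative one. Cd79a differed by -4.20 in vehicle mice (SE 0.14, 18.4-fold lower in GFP-positive cells) and by -4.29 in odor mice (19.6-fold), with adjusted p = 2.1e-09 and 1.3e-09 by limma. In the order of all 19938 genes from the steepest fall, Cd79a was at place 35 in vehicle and at place 33 in odor mice.

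Cd79b, the beta chain, measured 10.31, 10.87 and 10.71 on vehicle and 10.49, 10.40 and 10.95 on odor GFP-negative arrays. Its GFP-positive values were 7.13, 7.45 and 6.96 in vehicle and 7.32, 7.47 and 7.64 in odor mice. The gap between the closest arrays of the fractions was 2.67. The differences were -3.45 in vehicle and -3.14 in odor mice (SE 0.18, adjusted p = 2.1e-08 and 3.7e-08 by limma). Within single pools they ran from -3.76 to -2.93, so that every pool showed the step for both chains, which for Cd79a ran from -4.46 to -3.74.

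Cd3e, of the T cell receptor complex, was lower by less. It measured 8.59, 8.72 and 9.15 on vehicle and 9.03, 9.21 and 9.05 on odor GFP-negative arrays, against 7.53, 7.55 and 7.45 and 7.64, 7.49 and 7.32 on the GFP-positive ones. The fractions stayed apart by 0.95 at their closest. Cd3e differed by -1.31 in vehicle and by -1.61 in odor mice (SE 0.13, 2.48-fold and 3.06-fold lower, adjusted p = 5.8e-06 and 7.7e-07 by limma).

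The cytotoxic granule genes had the smallest steps of the 6. Nkg7 measured 7.14, 7.37 and 7.21 on vehicle and 7.48, 7.97 and 7.77 on odor GFP-negative arrays. Its GFP-positive values lay close together, at 6.48, 6.27 and 6.32 in vehicle and 6.33, 6.22 and 6.25 in odor mice. They were low among all genes, at percentiles from 23.1 to 29.3, so the size of the Nkg7 step is uncertain too. The difference was -0.88 in vehicle and -1.47 in odor mice (SE 0.11, adjusted p = 5.4e-05 and 5.6e-07 by limma). Gzma, granzyme A, measured 6.19, 6.15 and 6.04 on vehicle and 6.05, 6.01 and 5.92 on odor GFP-negative arrays. These values lay above the lower quartiles over all probe sets and below the medians of those arrays. Among the 19938 genes they were low, at percentiles from 18.5 to 22.0. On all 6 GFP-positive arrays Gzma lay below the lower quartile, with values of 5.44, 5.16 and 5.34 and of 5.35, 4.99 and 5.41. The size of its step is therefore uncertain. Gzma differed by -0.81 in vehicle and by -0.74 in odor mice (SE 0.11, adjusted p = 8.0e-05 and 0.000142 by limma).

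Jchain, the antibody joining chain, was also lower in GFP-positive cells, by a difference of -2.57 in vehicle mice (SE 0.22, adjusted p = 1.3e-06 by limma) and -3.56 in odor mice (adjusted p = 6.1e-08). Its GFP-negative values were 8.30, 7.80 and 7.33 on vehicle arrays 1, 2 and 4 and 8.41, 8.87 and 8.73 on odor arrays 2, 3 and 4. On the GFP-positive arrays it measured 4.95, 5.20 and 5.57 in vehicle and 5.04, 5.10 and 5.18 in odor mice, below the lower quartile of each array, so the size of these falls is uncertain. Within pools the differences were -3.35, -2.60 and -1.75 in vehicle pools 1, 2 and 4 and -3.37, -3.77 and -3.55 in odor pools 2, 3 and 4. Vehicle pool 4 thus had both the lowest GFP-negative and the highest GFP-positive value of Jchain.

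The same pool stood apart for Igha, the constant region of the IgA heavy chain to which the joining chain binds. On the vehicle GFP-positive array of replicate 4, Igha measured 8.64, against 6.46 to 6.75 on the other 5 GFP-positive arrays. Igha was higher on all 6 GFP-negative arrays, where it measured 9.97, 9.85 and 9.96 in vehicle and 9.83, 10.97 and 10.76 in odor mice. Antibody constant regions resemble one another, so this probe set may bind more than 1 of them. Without the vehicle GFP-positive array of replicate 4, Jchain differed by -2.73 between fractions of vehicle mice (SE 0.23). Without the GFP-negative array of that replicate it differed by -2.81 (SE 0.19).

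**Figure D2:**
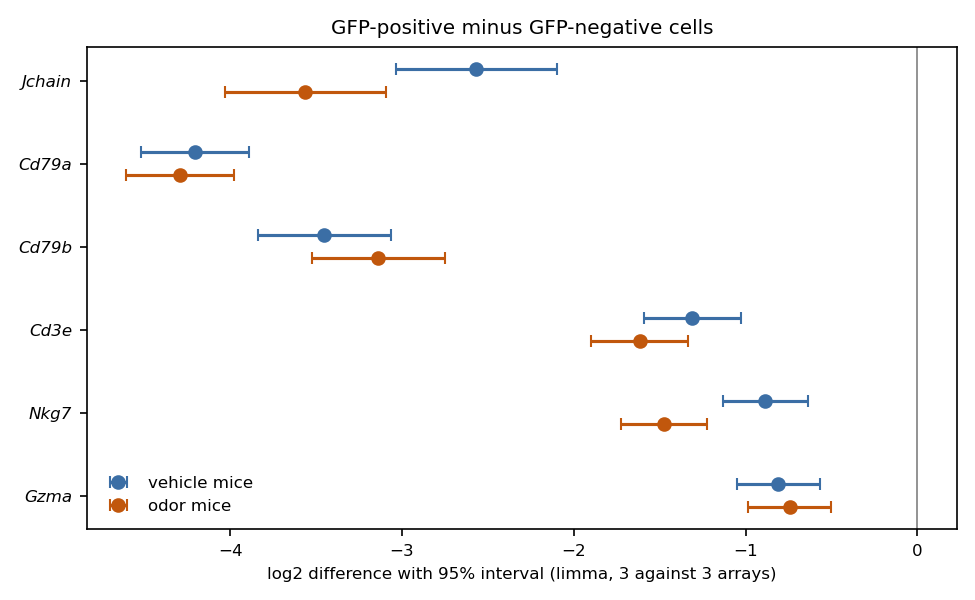
Difference between GFP-positive and GFP-negative cells for the 6 members (horizontal axis, log2, points with the 95% interval of the limma fit, 3 against 3 arrays), in vehicle and in odor mice. All intervals lie below 0, from Cd79a at -4.20 and -4.29 to Gzma at -0.81 and -0.74.

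**Figure D3:**
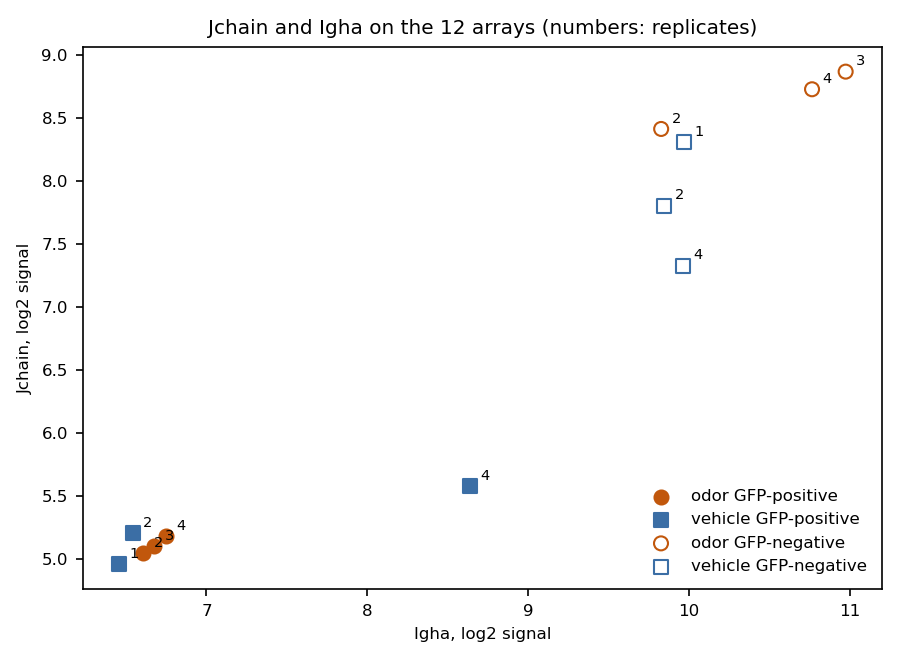
Jchain (vertical axis) against Igha (horizontal axis), both as deposited log2 signal, on the 12 arrays. Filled points are GFP-positive and open points GFP-negative arrays, colours give the treatment and numbers the replicate. The vehicle GFP-positive array of replicate 4, with Igha at 8.64, lies to the right of the other GFP-positive arrays.

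Other genes of the same cells were taken from lists that include the members. Of all genes 29.9% rose from the GFP-negative to the GFP-positive fraction in vehicle and 33.5% in odor mice. Of 16 B cell genes 15 were lower and 1 was higher in each treatment. Ms4a1, the B cell surface protein CD20, was lower, with differences of -4.76 in vehicle and -4.57 in odor mice (SE 0.22). Spib, a B cell transcription factor gene, differed by -4.18 and -4.17 (SE 0.19). The exception was Ebf1, higher by 0.37 and 0.40 (SE 0.067), a transcription factor of B cells that olfactory neurons also use. Of 13 plasma cell and antibody genes 10 were lower in vehicle and 11 in odor mice. The median difference of the 13 was -0.56 and -0.94, so most steps were smaller than those of the genes named next. Pou2af1, a B cell coactivator gene, was lower by -2.90 and -3.01 (SE 0.17). Ighm, the IgM heavy chain, differed by -2.78 in vehicle and -2.73 in odor mice (SE 0.20). The plasma cell receptor gene Tnfrsf17 differed by 0.032 and 0.083 (SE 0.12) without passing.

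Early B cell genes, used while antibody genes are being assembled, were lower for 6 of 8 in each treatment. Vpreb3, of the surrogate light chain family, differed by -2.84 in vehicle and -2.77 in odor mice (SE 0.17). The 2 genes that were not lower were Vpreb1 and Vpreb2 of the same family. Their medians on GFP-negative and GFP-positive arrays were 6.52 and 6.66 for Vpreb1, and 8.11 and 8.11 for Vpreb2. Rag1, of the recombinase that joins antigen receptor genes, differed by -2.06 and -2.50 (SE 0.25). Of 17 T cell genes 14 were lower and 1 was higher in vehicle mice, against 11 lower and 1 higher in odor mice. Their median difference was -0.48 in vehicle and -0.57 in odor mice. Cd3g, the gamma chain beside Cd3e, differed by -1.88 and -1.86 (SE 0.18), and the adhesion receptor gene Cd2 by -1.94 and -2.12 (SE 0.22). Cd3d, the delta chain, differed by -0.40 and -0.44 (SE 0.18) and did not pass. Bcl11b, a T cell transcription factor that is also active in neurons, was the gene that was higher, by 0.45 and 0.52 (SE 0.089).

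Of 20 natural killer and cytotoxic genes 13 were lower and 1 was higher in each treatment. Their median difference was -0.48 in vehicle and -0.49 in odor mice. Below the lower quartile lay 8 or 9 of the 20 on each GFP-positive and 4 to 6 on each GFP-negative array. The size of this median step is therefore uncertain. The interleukin receptor gene Il2rb was lower in each treatment, with a difference of -2.37 in odor mice (SE 0.23). The chemokine gene Ccl5 differed by -1.80 in vehicle and -1.88 in odor mice (SE 0.14). The T-box gene Eomes was higher by 1.08 and 0.90 (SE 0.12). Fasl, a death ligand gene, differed by -0.041 and -0.037 (SE 0.091) without passing. It lay below the lower quartile of every array, so a step could have been missed. Ebf1, Tnfrsf17, Vpreb1, Vpreb2, Rag1, Cd3d, Bcl11b, Eomes and Fasl were chosen for these sentences after their values were seen. Of 14 genes listed for signalling behind 1 or the other antigen receptor, 13 were lower in each treatment. Vav1, an exchange factor gene of that list, differed by -3.39 and -3.45 (SE 0.13).

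Genes for the delivery of mucosal antibody and for homing were more mixed. Of 9 delivery and survival genes 5 were lower in vehicle and 6 in odor mice. Itga4, an integrin chain of migrating lymphocytes, differed by -3.58 and -3.98 (SE 0.27). Pigr, the epithelial receptor that carries joined antibody across the epithelium, differed by -0.25 and -0.082 (SE 0.12) and did not pass. Of 10 homing genes 8 were lower in vehicle and 6 in odor mice, and Cxcr4, a chemokine receptor gene, differed by -3.61 and -3.80 (SE 0.22). Pigr was also chosen after its value was seen. White blood cells of other kinds moved with them. Lower in each treatment were 12 of 12 neutrophil genes (median -4.19 and -4.27) and 12 of 12 macrophage genes (median -2.04 and -2.46). The fall was not confined to white blood cells. All 6 of 6 sustentacular (supporting) cell genes were lower in each treatment (median -1.82 and -1.79). So were 9 of 9 dividing cell genes (median -1.41 and -1.72) and 6 of 6 erythroid genes. Of 6 horizontal basal cell genes 2 were lower, and of 7 immature neuron genes 3 were lower and 3 higher. Of 10 mature sensory neuron genes 8 were higher in vehicle and 9 in odor mice. The part of these cells in the members' values was not tested.

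Setting odor against vehicle mice in GFP-negative cells asks whether the exposure changed the lymphocyte signal outside the reporter cells. None of the 6 members passed over all genes by limma. Nor did any of 19938 genes (0%), while 1301 genes (6.53%) had an unadjusted p under 0.05, as did 2 members. Those 2, Jchain and Nkg7, were higher on each of the 3 odor arrays than on any vehicle array, which held for 2.79% of genes. Overlap was absent in either direction for 7.44% of genes.

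Jchain lay between 8.41 and 8.87 in odor mice and between 7.33 and 8.30 in vehicle mice, so the closest odor and vehicle arrays were near each other. Its means were 8.67 ± 0.23 and 7.81 ± 0.49 (SD, n = 3 arrays each), a ratio of 1.81 with a 95% interval of the log2 difference from 0.39 to 1.32. By limma the adjusted p was 0.732 over all genes, with an unadjusted p of 0.00176. Nkg7 had means of 7.74 ± 0.25 and 7.24 ± 0.12 (SD, n = 3), a ratio of 1.41 with an interval from 0.25 to 0.75 on the log2 scale. Its adjusted p by limma was also 0.732, with an unadjusted p of 0.000879. Ordered from the highest difference Jchain was at place 7 and Nkg7 at place 90 of all genes, and by unadjusted p they were at places 28 and 14. The members were chosen with earlier results of these data known. These places, and the shares of genes given above, therefore describe the values and are not a test.

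The direction was the same with each array left out in turn. Nkg7, which had no call with all arrays, gained a call in 1 of these 6 fits. Without odor GFP-negative replicate 2 the Nkg7 difference was 0.63 with an adjusted p of 0.0493 by limma, and its adjusted p was 0.226 to 1.00 without any 1 of the other 5 arrays. Jchain differed by 0.61 without vehicle GFP-negative replicate 4 and by 1.10 without vehicle GFP-negative replicate 1, and passed in none of the 6 fits. With array weights the difference of Jchain was 0.57 (SE 0.24).

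The other members gave smaller differences in GFP-negative cells. Cd3e had means of 9.10 ± 0.10 and 8.82 ± 0.30 (SD, n = 3) and differed by 0.28 (95% interval -0.0045 to 0.56), with vehicle replicate 4, at 9.15, inside the range of the odor arrays. Without that array Cd3e differed by 0.44. Cd79a differed by -0.0014 (interval -0.32 to 0.31) and Cd79b by -0.019 (interval -0.41 to 0.37), and the odor and vehicle arrays of both were interleaved. Gzma differed by -0.13 (interval -0.37 to 0.11), at low signal in both groups, so the size of its difference is uncertain. These intervals bound the change and do not show that the treatments were alike.

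**Figure D4:**
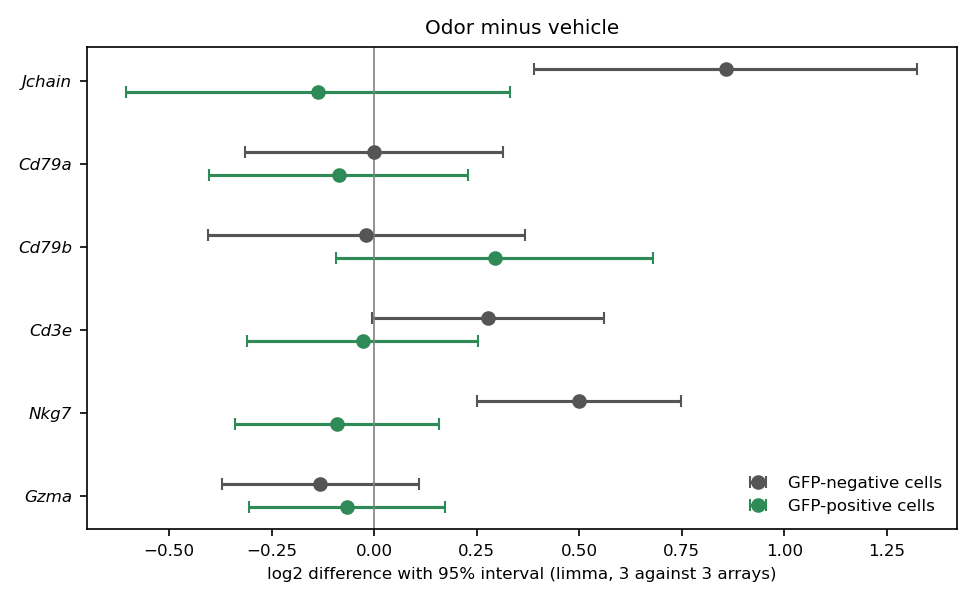
Difference between odor and vehicle mice for the 6 members (horizontal axis, log2, points with the 95% interval of the limma fit, 3 against 3 arrays), in GFP-negative and GFP-positive cells. In GFP-negative cells the intervals of Jchain (0.39 to 1.32) and Nkg7 (0.25 to 0.75) lie above 0 before adjustment for 19938 genes, and in GFP-positive cells all intervals include 0.

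The members did not rank the 6 GFP-negative arrays in the same order. Jchain was highest on odor array 3 and lowest on vehicle array 4, whereas Cd3e was second highest on vehicle array 4. Cd79a and Cd79b were lowest on vehicle array 1 and highest on odor array 4. Gzma was highest on vehicle array 1 and lowest on odor array 4. Among arrays of the same group the SD of Jchain in GFP-negative cells was 0.383, above that of 96.3% of genes, and that of Gzma 0.0737, above that of 11.3%.

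Markers of other cells also differed among these arrays. The mean level of the 10 pan-leukocyte genes, all above the lower quartile on each GFP-negative array, ran from 10.76 to 11.32 on the odor and from 10.80 to 11.06 on the vehicle arrays, so the groups overlapped. For the 12 neutrophil genes the ranges were 11.54 to 12.01 and 11.50 to 11.61, and for the 12 macrophage genes 9.52 to 10.18 and 9.58 to 9.80. The 10 genes of mature sensory neurons ran from 11.66 to 11.97 and from 11.71 to 11.93. Vehicle array 4, lowest for Jchain, had the highest pan-leukocyte mean of the vehicle arrays (11.06). The mean of the 9 dividing cell genes ran from 7.91 to 8.53 on the odor and from 7.91 to 8.32 on the vehicle arrays. It was highest on odor array 3, as were Jchain and Nkg7. The same array was highest for Cd3e (9.21) and for the means of the T cell genes (7.41), the antibody delivery and survival genes (7.50) and the sustentacular (supporting) cell genes (10.82). The pan-leukocyte, neutrophil and macrophage means were highest on odor array 4. The part of cell composition in the differences of Jchain and Nkg7 was not tested.

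**Figure D5:**
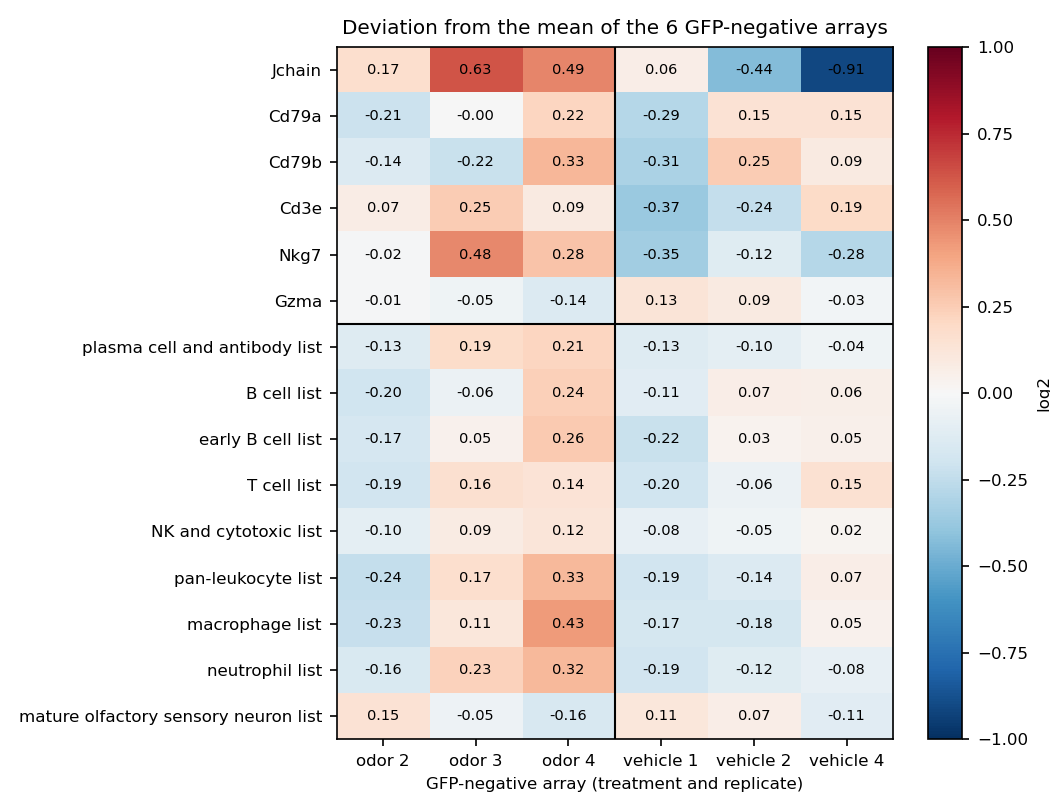
Deviation of each GFP-negative array (columns, treatment and replicate) from the mean of the 6 for the 6 members (upper rows) and for the mean level of 9 gene lists (lower rows), as log2 values written in the cells. Jchain runs from -0.91 on vehicle array 4 to 0.63 on odor array 3, while the pan-leukocyte list is above its mean on odor arrays 3 and 4 and vehicle array 4.

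Related genes of the same lists gave no call in GFP-negative cells. Of 13 plasma cell and antibody genes 9 were above 0, with a median of 0.11 against -0.015 over all genes, of which 45.3% were above 0. Igha differed by 0.59 (SE 0.46), with odor array 2 at 9.83 below all vehicle arrays, and Prdm1, the plasma cell master regulator, by 0.24 (SE 0.18). Of 16 B cell genes 6 were above 0 (median -0.015), with the complement receptor gene Cr2 at -0.21 (SE 0.12) and the kinase gene Blk at 0.15 (SE 0.11). Early B cell genes were above 0 for 5 of 8 (median 0.081), with Rag2 at 0.23 (SE 0.12).

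Of 17 T cell genes 11 were above 0 (median 0.038). Cd4, the helper T cell coreceptor that macrophages can also carry, differed by 0.46 (SE 0.17), and its odor array 2, at 7.99, lay inside the vehicle range of 7.76 to 8.06. Of 20 natural killer and cytotoxic genes 11 were above 0 (median 0.0071). Cst7, an inhibitor of granule proteases, differed by 0.54 (SE 0.15) and was, besides the members, the lymphocyte list gene whose odor and vehicle arrays did not overlap. Its values were 6.94, 7.67 and 7.15 in odor and 6.67, 6.86 and 6.60 in vehicle mice. Il2rb differed by 0.49 (SE 0.23), with overlap. Of 14 antigen receptor signalling genes 13 were above 0 (median 0.12), as were 10 of 10 pan-leukocyte genes (median 0.17) and 12 of 12 neutrophil genes (median 0.18). So were 11 of 12 macrophage genes (median 0.24) and 9 of 9 genes of dividing cells (median 0.19). Other lists did not lean that way. Above 0 were 5 of 10 homing genes (median -0.019) and 5 of 9 antibody delivery and survival genes (median 0.093). Fewer were above 0 among genes of mature sensory neurons (2 of 10), immature neurons (2 of 7), sustentacular cells (2 of 6) and horizontal basal cells (2 of 6).

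Among GFP-positive cells the odor and vehicle groups overlapped for every member, while 7.93% of genes did not overlap. Members called numbered 0 of 6 by limma, where 0.00502% of genes passed, and no member had an unadjusted p under 0.05, as 1.3% of genes did. Jchain differed by -0.14 (95% interval -0.61 to 0.33) and Nkg7 by -0.090 (interval -0.34 to 0.16), with means of 6.27 ± 0.053 in odor and 6.36 ± 0.11 in vehicle mice (SD, n = 3). Cd79b differed by 0.29 (interval -0.093 to 0.68), Cd79a by -0.087 (interval -0.40 to 0.23), Cd3e by -0.028 (interval -0.31 to 0.25) and Gzma by -0.066 (interval -0.31 to 0.17).

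Whether the odor difference of a member was unlike in the 2 fractions was tested by the interaction term. No member passed over all genes by limma, where 0.00502% of genes did and 4.23% had an unadjusted p under 0.05. For Jchain the odor difference in GFP-negative cells exceeded that in GFP-positive cells by 0.99 (SE 0.30, unadjusted p = 0.0066, adjusted p = 0.971 by limma). For Nkg7 that difference was 0.59 (SE 0.16, unadjusted p = 0.00326, adjusted p = 0.971 by limma). The values of Cd3e, Cd79a, Gzma and Cd79b were 0.31, 0.086, -0.065 and -0.31, with standard errors from 0.16 to 0.25. On the GFP-positive arrays Jchain and Gzma lay below the lower quartile and Nkg7 was low. The sizes of these 3 interactions are therefore uncertain. The vehicle and odor comparisons of the fractions use these same arrays, so the steeper fall of Jchain and Nkg7 in odor mice is the same difference seen from the other side.

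The genes with the most alike patterns over the 12 arrays were found by the root mean square distance between log2 values, each gene centred on its own mean. For Cd79a they were Ctse, Fxyd5 and the leukocyte gene Ptprc, at distances of 0.135, 0.156 and 0.164, against a median of 2.18 over 18357 genes. For Cd79b they were Ly6d, a surface protein gene of B lineage cells, H2-Ob, a chain of an antigen presentation cofactor, and D17H6S56E-5, at 0.144 to 0.167. Cd3e was nearest to Pik3cd, the leukocyte lipid kinase gene, Tap1, a peptide transporter gene of antigen presentation, and Pfn1, an actin-binding protein gene, at 0.131 to 0.138.

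Nkg7 lay nearest to Tacc3 and Spag5, genes of the mitotic spindle, and Lta4h, an enzyme gene of leukotriene synthesis, at 0.0956 to 0.119. Its distances to Cd3e and Gzma were 0.232 and 0.338. Gzma was nearest to Dclk1, Tmem184a and the immature neuron gene Gap43, at 0.114 to 0.132. Jchain had no gene closer than 0.313, that distance being to Casp1, the inflammatory protease gene, followed by Sat1, a polyamine enzyme gene, and Sult1e1, a sulfotransferase gene, at 0.314 and 0.317. No member was among the 3 nearest of another.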

How the data were processed

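RNA from sorted GFP-positive and GFP-negative cells was hybridised to 12 arrays in 4 groups of 3. The authors deposited 1 log2 value for each probe set and array, computed in Expression Console (Affymetrix), per the submitters' processing notes. How background correction, summarization and scaling between arrays were done was not given in the sources used here. These deposited values entered the model unchanged, and 2 alternatives rescaled them. Of 35556 probe sets, 21789 had 1 symbol, 1621 several and 12146 none in the annotation, and the highest-mean probe set per symbol left 19938 genes. Genes with low values were kept. Arrays give no read depth, and their number limits the precision.

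The 4 groups were fitted in 1 model in limma 3.58.1 (R 4.3.3), with two-sided moderated tests and Benjamini-Hochberg adjustment over all genes at 0.05. The fit was tested on simulated data. Lists are described by counts and medians, without a test. Figures used Python 3.11.15, pandas 2.3.3, numpy 2.4.6 and matplotlib 3.10.9. The members and the 19 lists were chosen with earlier results of these data known. All members are named, with S100a5, Omp, and of each list up to 2 genes with the largest called difference or the smallest p. The 3 genes most like each member were ranked after leaving out predicted, small RNA and mitochondrial genes. The text gives part of the genes so named, and genes outside the rule are marked where they appear or were chosen after their values were seen.

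GFP-positive and GFP-negative arrays of the same number and treatment are taken as the same pool of 3 mice, since 18 mice gave 6 pools. Deviations from the group means of such arrays correlated over all genes at 0.07 to 0.25. P-values of the main fit rest on the spread between arrays of the same group, which hold different pools of mice. That fit did not pair the 2 fractions of a pool, and the pool block was an alternative. No 2 arrays shared more than 11 identical values.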

Additional observations from a re-analysis of the deposited data

How the results depend on the processing

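In both fraction comparisons the fall of every tested member passed in all alternatives tried: 2 other scalings, array weights, the 2 groups alone, the mean of probe sets, the pool of mice as a replicate block, and each array left out. Gzma has no value once genes with a mean below 6.37 were dropped, which left 5 members called of 5. The pool block changed no member's call. Between odor and vehicle no member passed in GFP-negative cells except Nkg7 in 1 fit, so that the count of members called was 0 to 1 with 1 array left out. Blocks by code number and by title number gave Jchain 0.86 in both and Nkg7 0.50 and 0.46, without a call. Arrays of the same code number in odor and vehicle mice correlated in their deviations at 0.31, 0.19 and 0.27 in GFP-positive cells and at 0.44, -0.21 and 0.28 in GFP-negative cells. By title number the values were -0.17 and 0.27, and 0.24 and 0.28. In GFP-positive cells the code block left 0 members and 1 gene called, as without it.

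Over members and comparisons 407 refits kept the direction and the call, 1 gained a call, and 19 values without a call changed sign. With array weights Cd79a was 0.20 and Cd79b 0.20 in GFP-negative cells, Gzma in GFP-positive cells was 0.042 with the title number as replicate block, and the interaction of Gzma was 0.018 with a second quantile normalization and 0.039 with cyclic loess; the cause was not tested. With 1 array left out, odor minus vehicle ran in GFP-negative cells from -0.15 to 0.11 for Cd79a and from -0.19 to 0.10 for Cd79b. In GFP-positive cells it ran from -0.28 to 0.029 for Jchain, from -0.11 to 0.053 for Cd3e and from -0.15 to 0.064 for Gzma. The interaction ran from -0.059 to 0.19 for Cd79a and from -0.20 to 0.015 for Gzma.

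Over all genes, calls in GFP-negative cells numbered 0 to 15 with 1 array left out (15 without odor GFP-negative replicate 2), against 0. In GFP-positive cells they numbered 0 to 1 and for the interaction 0 to 3, against 1 each. Cyclic loess moved the median difference of all genes between fractions of odor mice from 0.13 to 0.019.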
